A study of Rattus norvegicus with 18 samples.

Results

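The 106 genes described here were chosen by their response to a single training session in the rat brain: their RNA was higher 1 h after training than in untrained animals in the dorsal hippocampus, while the prelimbic cortex of the same groups stayed within set limits. They were 106 of 32662 genes counted. In the untrained hippocampus the typical member stood at 11.2 CPM (its count as a part of all gene counts of the library, scaled to the same total in each), and its hippocampal rise was small, with a median of 0.37 on the log2 scale. At 6 d the hippocampal median was 0.12 above naive, a difference that leans towards the choice because the naive pools had been required to be low. At 6 d, in pools that the choice did not use, 35 members (33.0%) were called lower in the hippocampus than in the prelimbic cortex, against 22.8% of all genes tested, and 23 (21.7%) higher, near the 23.0% of all genes tested. The part of the choice in the share called lower was not tested.

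The data were RNA-seq libraries of adult Long-Evans rats, made from punches of dorsal hippocampus (dHC) and of prelimbic cortex (PL), a medial prefrontal area. Naive rats stayed untrained in the home cage. The trained rats had learned an inhibitory avoidance task, in which entry into a chamber is punished with a foot shock and the animal later holds back from entering, and they were killed 1 h or 6 d after training. Each of the 6 groups had 3 pools, each of the RNA of 5 rats, so that a value is a mean over 5 animals and the spread between pools understates the spread between rats. The labels give no transgene, drug or allele for any group, and they give no group that was handled or shocked without learning, so learning, shock and handling cannot be told apart here. In tissue of mixed cells, fewer cells of a type and less RNA per cell cannot be told apart either.

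Memories of a single aversive episode are first dependent on the hippocampus, and with time come to rely more on cortical areas, the prelimbic cortex among them. Learning sets off transcription in neurons within minutes, beginning with immediate early genes, many of which encode transcription factors, and followed by later genes that act at synapses, in signalling and in metabolism. A time point of 1 h falls in the span in which early transcripts are still raised and later ones begin to rise, and a time point of days asks which changes last.

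The files gave Ensembl gene identifiers without names, and none of these matched the RefSeq table used here, so that the members' functions and sequences are not described. The 30 lists of pathway genes, and the markers of neurons, glia, vessels, choroid plexus and blood set up to check the tissue, could not be measured for the same reason. Members are called by their rank, from 1 for the largest hippocampal change to 106 for the smallest. The identifiers of only 2 are printed: rank 1, ENSRNOG00000053007, and rank 13, ENSRNOG00000017328, which was singled out after its values were seen.

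The choice worked as follows. The level of a gene in a group was log2 of its mean CPM plus 0.5, and a change was the difference of 2 levels. A mean of at least 5 CPM in dHC at 1 h was reached by 11494 genes. Of these, 290 had a dHC level at 1 h at least 0.3 above naive, and in 214 of the 290 every 1 h pool was above every naive pool. The PL change at 1 h was 0.15 or more for 99 of the 214 and below -0.3 for 9, and the remaining 106 were kept. The choice also leaves out 12 named genes, and none of the 12 met the other limits. The same limits turned round, for genes lower at 1 h in dHC with a flat PL, were met by 92 genes. The last genes inside the limit of 0.3 had changes of 0.30001, 0.30101 and 0.30118, and the nearest genes outside had 0.29913, 0.29642 and 0.29598. A naive mean of 5.80 CPM and a 1 h mean of 7.25 CPM let the first of these in, while 40.9 and 50.4 CPM kept the first of the others out, so the limit divided genes of near-equal change.

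**Figure D1:**
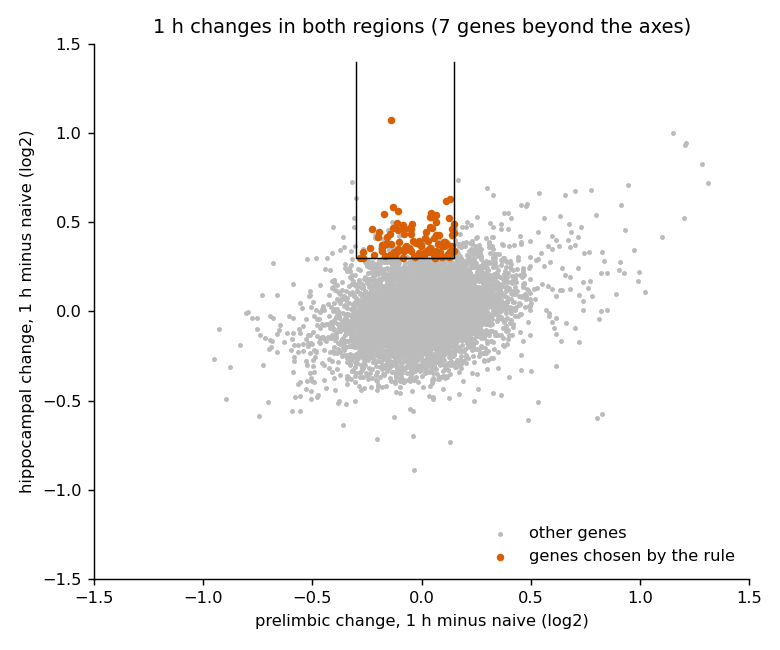
Each point is a gene with a mean of at least 5 CPM in dHC at 1 h. The x axis is the PL change and the y axis the dHC change from naive to 1 h, both as differences of log2(mean CPM + 0.5). Black lines mark the limits of the choice, and the 106 chosen genes, in orange, lie almost all close to the lower line; grey points inside the lines are genes whose pools overlapped. Beyond the axes lie 7 genes.

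Total gene counts were 7463875 to 9215695 over the 18 libraries. The 3 dHC pools at 1 h, with 8914752 to 9136114 counts, were all deeper than the 3 naive dHC pools, with 7687831 to 8874826. The part of this depth difference in the results was not tested. With TMM or DESeq2 scaling in place of the total count the choice gave 114 and 118 genes, which held all 106. Reads given to no gene made up 10.1% to 12.4% of the naive, 10.9% to 11.6% of the 1 h and 10.1% to 11.8% of the 6 d dHC libraries.

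All values of the 1 h change in dHC and PL, the counts of calls included, describe the choice and support nothing beyond it. The dHC change was from 0.30 to 1.08, with quartiles of 0.33 and 0.44. It was under 0.4 for 67 members, from 0.4 to under 0.5 for 27 and at least 0.5 for 12, of which rank 1 alone passed 1. The median over the 14305 genes tested in dHC was -0.01. The distance between the lowest 1 h pool and the highest naive pool had a median of 0.17 on the log2 scale and ran from 0.01 to 0.97. It was at least 0.2 for 35 members and under 0.05 for 16, so that for the latter a small shift of 1 pool would have closed it.

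Most members had lower levels than the typical gene that reached 5 CPM at 1 h. Their naive dHC levels ran from 3.13 to 1719 CPM with a median of 11.2 CPM, against a median of 36.2 CPM over the 11494 genes that reached 5 CPM at 1 h. The choice used these naive pools, and its part in the low levels was not tested. Below 10 CPM lay 48 members with a median change of 0.39, from 10 to under 50 CPM lay 38 with 0.37, and 20 members of 50 CPM or more had 0.35. The lowest count of a member in any naive or 1 h dHC pool had a median of 86.5. When the counts of 3 pools were summed, the exact 95% interval of the 1 h to naive fold, which covers counting error only, lay above 1 for 104 members and included 1 for ranks 100 and 105. The median coefficient of variation over pools was 9.20% in naive and 7.38% at 1 h, against 10.3% and 8.45% from counting alone. At 6 d it was 11.8%, against 9.80% from counting alone. A standard deviation of 3 pools is more often below the true spread than above it. No spread smaller than counting error is therefore read from these medians. The choice required naive and 1 h pools not to overlap, which favours a small spread in these groups. Over genes of at least 5 CPM in dHC at 1 h, the median was 6.65% in naive, 5.92% at 1 h and 7.92% at 6 d.

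Rank 1, ENSRNOG00000053007, stood apart from the rest by the size of its change. Its dHC levels were 3.49, 3.90 and 3.85 CPM in the naive pools, 8.86, 8.39 and 8.10 CPM at 1 h, and 4.42, 6.81 and 4.56 CPM at 6 d. The naive pools held 30 to 34 counts and the 1 h pools 74 to 79, and the fold of the summed counts was 2.26 (exact 95% interval 1.77 to 2.90). All 1 h pools were above all 6 d pools, and all 6 d pools were above all naive pools. In PL it was at 4.34, 3.52 and 4.05 CPM in naive pools, at 3.26, 2.70 and 4.69 CPM at 1 h and at 4.18, 5.90 and 5.61 CPM at 6 d. The 1 h pools in PL thus lay on both sides of the naive pools.

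Ranks 2 to 5 were of a similar low level. Rank 2 was at 3.49, 3.38 and 4.19 CPM in naive dHC pools, at 6.17, 6.60 and 5.14 CPM at 1 h and at 5.30, 4.43 and 4.07 CPM at 6 d. Rank 3 had 2.59, 3.51 and 3.28 CPM in naive pools, 5.05, 5.48 and 4.71 CPM at 1 h and 4.29, 4.43 and 5.79 CPM at 6 d. Its 6 d pools overlapped with the 1 h pools and were all above the naive pools, whereas those of rank 2 overlapped with both. Rank 4 went from 3.04, 4.55 and 3.17 CPM to 5.38, 5.26 and 6.24 CPM at 1 h, and stood at 4.92, 4.43 and 3.20 CPM at 6 d. Rank 5 went from 5.07, 4.55 and 4.98 CPM to 7.07, 7.83 and 7.44 CPM, and stood at 5.68, 4.43 and 6.65 CPM at 6 d. At 6 d, all pools of ranks 4 and 5 were below their 1 h pools, and overlapped with their naive pools. In PL, rank 2 was at 3.58, 3.52 and 4.91 CPM in naive, 5.06, 3.53 and 4.69 CPM at 1 h and 3.85, 3.75 and 4.70 CPM at 6 d. Rank 3 was at 6.73, 5.50 and 5.77 CPM in naive, 6.30, 7.99 and 5.26 CPM at 1 h and 6.94, 5.36 and 6.07 CPM at 6 d. The 3 groups overlapped in both. In PL the naive pools of rank 4 spread from 2.09 to 5.52 CPM, a range that held all of its 1 h and 6 d pools. These were at 3.26, 2.09 and 5.52 CPM in naive, 2.25, 4.23 and 3.32 CPM at 1 h and 2.31, 4.15 and 3.78 CPM at 6 d. Rank 5 was above its dHC levels in every group, at 13.5, 10.6 and 12.2 CPM in naive PL pools, 9.90, 11.9 and 11.7 CPM at 1 h and 12.4, 11.1 and 10.9 CPM at 6 d.

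Among ranks 6 to 10, rank 6 had 1 pool far above the rest at 1 h. It had 22.2, 18.7 and 24.0 CPM in naive dHC pools and 27.6, 40.9 and 27.5 CPM at 1 h. Its 6 d pools were at 25.4, 19.9 and 16.9 CPM, within or near the naive range. Rank 7 went from 5.52, 7.28 and 7.58 CPM to 10.7, 10.8 and 8.98 CPM at 1 h and was at 11.2, 9.54 and 9.24 CPM at 6 d, so that 1 h and 6 d pools overlapped and both lay above all naive pools. Rank 8 went from 6.08, 6.37 and 9.40 CPM to 11.1, 11.1 and 10.3 CPM, with 9.22, 7.15 and 8.99 CPM at 6 d. Rank 9 went from 6.31, 6.63 and 9.62 CPM to 11.0, 9.95 and 12.3 CPM, and its 6 d pools, at 5.43, 6.13 and 5.42 CPM, were all below its naive pools. It was the only member of which this was true. Rank 10 went from 5.52, 6.11 and 6.11 CPM to 9.31, 8.50 and 8.43 CPM and stood at 6.82, 5.11 and 6.28 CPM at 6 d. For ranks 8 and 9 the third naive pool was well above the other naive pools, and it was the highest of the naive dHC pools for 56 of the 106 members.

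In PL, rank 6 was at 34.8, 30.0 and 37.8 CPM in naive, 33.4, 39.6 and 32.8 CPM at 1 h and 31.3, 30.9 and 36.8 CPM at 6 d. Rank 7 was at 10.9, 13.5 and 12.9 CPM in naive, 9.34, 11.8 and 11.8 CPM at 1 h and 9.80, 13.4 and 12.4 CPM at 6 d. In both genes the 3 groups overlapped. Rank 8 was at 5.97, 7.15 and 6.51 CPM in naive, 5.40, 8.46 and 6.74 CPM at 1 h and 5.62, 4.82 and 5.73 CPM at 6 d, where all pools were below the naive pools. Rank 9 was at 21.7, 17.7 and 22.7 CPM in naive, 22.3, 19.5 and 22.3 CPM at 1 h and 19.5, 19.8 and 16.3 CPM at 6 d, above its dHC pools in every group. Rank 10 was at 9.87, 11.1 and 12.5 CPM in naive, 9.34, 11.9 and 13.3 CPM at 1 h and 9.58, 11.8 and 14.7 CPM at 6 d, and its groups overlapped.

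**Figure D2:**
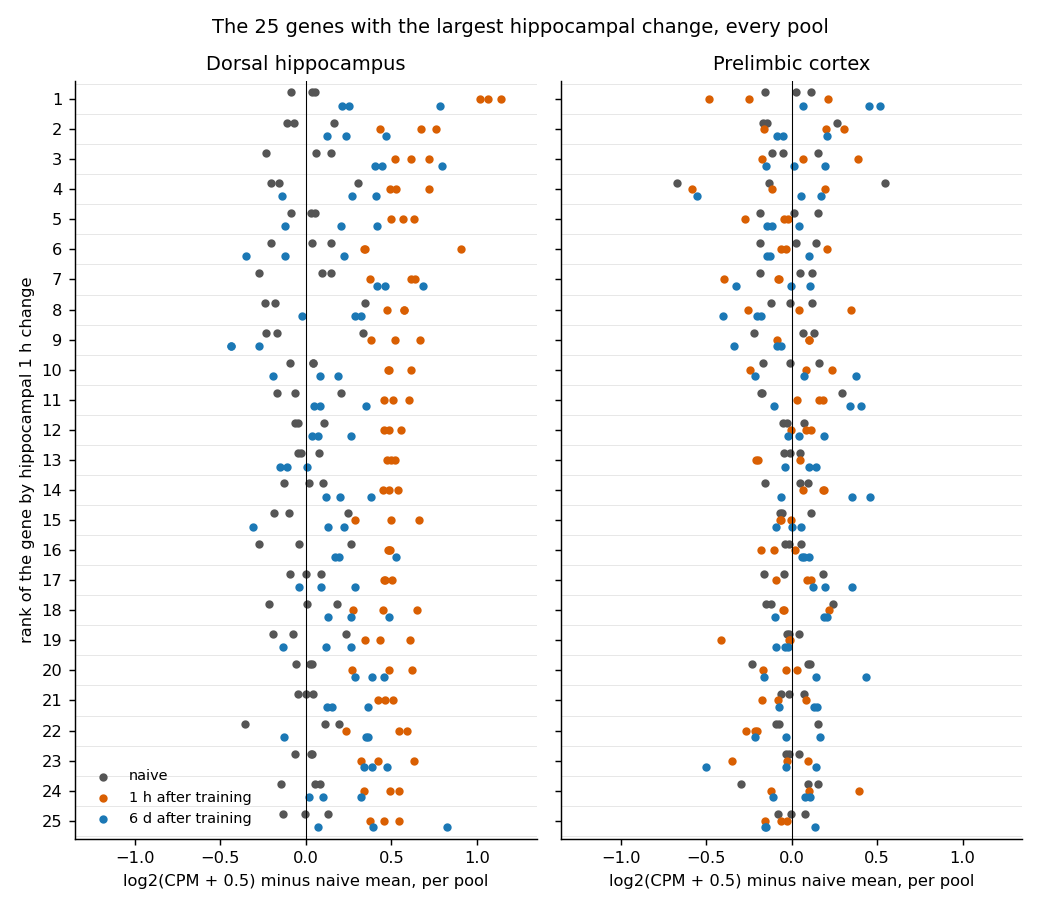
The 25 members of largest dHC change, one row each, with every pool as a point. The x axis is log2(CPM + 0.5) of the pool minus the naive mean of the same gene and region, for dHC on the left and PL on the right. In dHC the orange 1 h points lie right of all black naive points, as the choice required, and the blue 6 d points lie between them or among the naive points for most rows; in PL the colours mix.

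A change was called where edgeR's quasi-likelihood test gave a Benjamini-Hochberg adjusted p under 0.05 over all genes tested. In dHC at 1 h against naive, 15 of the 106 members were called higher (14.2%), and 0.217% of all genes tested were called higher. Since the choice used this contrast, nothing is read from the difference. The remaining 91 members met the limits of the choice but were not called. The 15 had edgeR log2 fold changes of 0.34 to 1.18 with a median of 0.45, and were ranks 1, 11, 12, 13, 14, 17, 21, 28, 34, 35, 39, 47, 59, 72 and 83. Of them 9 were among the 20 members of 50 CPM or more and only rank 1 was under 10 CPM. The count of 15 rested on single pools: it was 2 without the first naive pool, 8 without the second, 3 without the first 1 h pool and 4 without the third. The count over all genes, 31 called higher, also fell, to 15, 26, 14 and 17 in the same order.

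The called members differed in how far their pools spread. Rank 11, the most abundant member, was at 1527, 1645 and 1986 CPM in naive dHC pools and at 2361, 2614 and 2444 CPM at 1 h, on counts of 12645 to 23373 per pool. Its fold over the summed counts was 1.44 (exact 95% interval 1.42 to 1.45), and the naive pools differed among themselves far more than counting error allows. Rank 13, ENSRNOG00000017328, had 31.2, 30.8 and 33.6 CPM in naive pools and 46.0, 44.4 and 45.2 CPM at 1 h. Rank 21 had 242, 250 and 257 CPM in naive pools and 344, 334 and 356 CPM at 1 h. In ranks 13 and 21 the 1 h pools lay well clear of the naive pools. Rank 28 had 193, 217 and 233 CPM in naive pools and 313, 265 and 298 CPM at 1 h. Rank 83, a gene near the limit of the choice, went from 72.6, 76.6 and 78.3 CPM to 94.6, 91.6 and 100 CPM.

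The other called members had these mean dHC levels, naive first and 1 h second. Rank 12 had 18.4 and 26.2 CPM, rank 14 had 20.8 and 29.5 CPM, and rank 17 had 23.8 and 33.3 CPM. Rank 34 had 45.8 and 61.9 CPM, rank 39 had 62.6 and 83.4 CPM, and rank 72 had 68.3 and 86.6 CPM. Ranks 35, 47 and 59, at naive means of 84.3, 82.8 and 83.4 CPM, reached 113, 108 and 108 CPM.

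The PL change at 1 h, which the choice held to a narrow range, had a median of -0.01 over the members and ran from -0.28 to 0.15. It was above 0 for 49 members and below 0 for 57. Rank 13 was at 58.9, 56.5 and 55.0 CPM in naive PL pools and at 49.5, 49.1 and 58.8 CPM at 1 h. Rank 21 was at 297, 270 and 279 CPM in naive and at 250, 267 and 299 CPM at 1 h. In both genes 2 of the PL pools at 1 h were below the lowest naive pool; the third was within the naive range for rank 13 and above it for rank 21.

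A flat PL and a raised dHC do not by themselves make a difference between regions that holds against the pool spread. When the 1 h changes of both regions were set against each other in 1 fit of all 18 libraries, the dHC change was called larger for 2 of the 106 members (1.89%), ranks 13 and 21, with 0.0338% of all genes tested called in that direction. The difference of the changes was 0.64 for rank 13 and 0.54 for rank 21 on the log2 scale. Both contrasts had been used for the choice, so these values are descriptions too. For the other 104 members the difference between regions was not called. The count of 2 became 0 without the first pool of naive dHC, of dHC at 1 h, of naive PL or of PL at 1 h, and 1 without the third dHC pool or the second PL pool at 1 h. Over all genes, the 5 called in that direction became 1 without any of these first pools. They became 2 without the third dHC pool at 1 h and stayed 5 without the second PL pool at 1 h.

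The 6 d pools were not used by the choice. In dHC the members' 6 d levels stood above naive by a median of 0.12, with a range of -0.38 to 0.57, while the median over all genes tested was -0.01. The 6 d level was above the naive level for 85 members and below it for 21. Among the 14305 genes tested in dHC, the 6 d level was above naive for 6788 and below for 7517. For 81 members it lay between the naive and the 1 h level, for 4 it was above the 1 h level, and it was nearer to naive for 77 and nearer to 1 h for 29. The median member kept 0.33 of its 1 h change. The comparison with naive shares the naive pools that the choice required to be low, and the comparison with 1 h shares the 1 h pools that it required to be high, so both medians lean in the direction the choice set.

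By pool, the members' median stood 0.17, 0.12 and 0.08 above the naive mean in the 3 dHC pools at 6 d, where 81, 72 and 75 of the 106 members were above it. It was -0.06, 0.01 and 0.06 in the naive pools themselves and 0.36, 0.35 and 0.41 at 1 h. All 3 of the 6 d medians were thus above all 3 naive medians and well below the 1 h medians. The choice required each member's naive pools to lie below its 1 h pools. This order therefore leans towards the choice and is given as a description. The same median over all genes tested stayed between -0.023 and 0.032 in all 18 libraries. In PL the members' medians were 0.02, -0.05 and 0.02 in naive, -0.06, -0.00 and 0.01 at 1 h and -0.03, 0.09 and 0.06 at 6 d, and the groups overlapped.

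**Figure D3:**
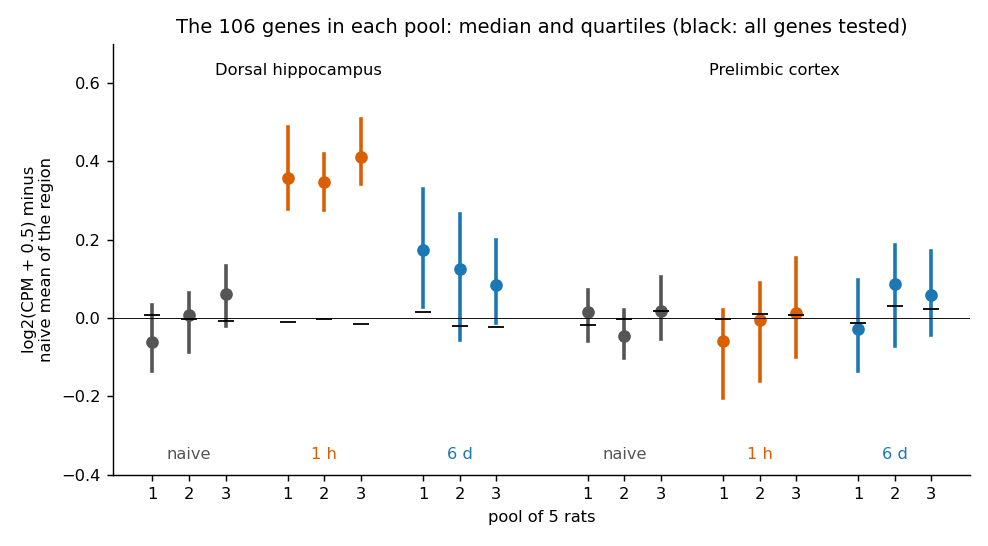
Median (point) and quartiles (line) of the 106 members in each of the 18 pools, as log2(CPM + 0.5) minus the naive mean of the same gene and region. Short black bars give the median over all genes tested. In dHC the 1 h pools, high because the members were chosen that way, are at 0.35 to 0.41. The 6 d pools are at 0.08 to 0.17, against naive pools that the choice required to be low. In PL the groups overlap.

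No single member passed the test at 6 d against naive in dHC. edgeR called 0 of the 106 and 0.0% of all genes tested, DESeq2 also called 0 members, and the smallest adjusted p of a member by edgeR was 0.831. At an unadjusted p under 0.05, 22 members were higher (20.8%) and 1 was lower (0.943%), where 3.32% and 2.3% of all genes tested were. Every 6 d pool was above every naive pool for 20 members (18.9%; 4.43% of all genes tested), and below for 1 member (0.943%; 5.22%). These counts share the naive pools with the choice and are given as a description.

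Members with the highest dHC values at 6 d against naive were ranks 3, 67, 7, 1 and 25, with edgeR log2 differences of 0.64, 0.63, 0.57, 0.51 and 0.50. Rank 67 was at 3.61, 4.16 and 4.30 CPM in naive pools, 5.72, 5.37 and 4.71 CPM at 1 h and 6.06, 5.79 and 6.78 CPM at 6 d. It was the 1 member with all 6 d pools above all 1 h pools. At the other end were ranks 9, 65, 33, 32 and 90, with -0.40, -0.27, -0.24, -0.22 and -0.18. None of these 10 differences passed the adjusted test by edgeR.

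Against 1 h, the dHC level at 6 d was lower by a median of 0.26 on the log2 scale, and it was lower for 102 of the 106 members. It was lower for 7130 of the 14305 genes tested in dHC. edgeR called 12 members lower (11.3%; 0.699% of all genes tested) and 0 higher, and 58 members (54.7%; 7.32%) were lower at an unadjusted p under 0.05. The 12 that fell were ranks 6, 9, 11, 13, 28, 33, 34, 35, 51, 73, 83 and 97, of which 6 were also among the 15 called at 1 h against naive. All 6 d pools were below all 1 h pools for 56 members (52.8%; 9.72%). This comparison shares the high 1 h pools with the choice, which favours a fall, so that these counts and the values of single members that follow are descriptions. The 12 became 3 without the first 1 h pool, 2 without the third and 7 without the second 6 d pool. Over all genes, the 100 called lower became 26, 16 and 32 in the same order.

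Rank 13 fell from 1 h to 6 d. It was at 28.7, 29.5 and 32.0 CPM at 6 d, a mean of 30.1 ± 1.76 (SD, n = 3), against 45.2 ± 0.798 at 1 h and 31.9 ± 1.51 in naive pools. The 6 d pools overlapped with the naive pools and did not overlap with the 1 h pools. The edgeR log2 difference from 1 h was -0.59 (SE 0.08, adjusted p = 0.00121), against 1 h pools that had been chosen high. The difference from naive was -0.08 (SE 0.08).

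Rank 28, at 204, 217 and 213 CPM at 6 d, was within its naive range and below its 1 h pools, with an edgeR log2 difference from 1 h of -0.47 (SE 0.07, adjusted p = 0.00374). Rank 83, at 74.5, 72.9 and 71.3 CPM, had -0.39 (SE 0.07, edgeR adjusted p = 0.00696). Rank 9 had the largest drop among the 12, -0.96 (SE 0.18, edgeR adjusted p = 0.0120), and its 6 d mean of 5.66 ± 0.408 CPM (SD, n = 3) was under its naive pools as well. Rank 11 was at 2193, 1818 and 1777 CPM at 6 d and had -0.36 (SE 0.08, edgeR adjusted p = 0.0340). Rank 6 had -0.63 (SE 0.15, edgeR adjusted p = 0.0487), and its 1 h mean included the high second pool.

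Rank 21 kept an intermediate level. At 272, 320 and 278 CPM, all its 6 d pools were above its naive pools and below its 1 h pools. The edgeR log2 difference was 0.23 (SE 0.06) from naive, which was not called, and -0.25 from 1 h (edgeR adjusted p = 0.0718).

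**Figure D4:**
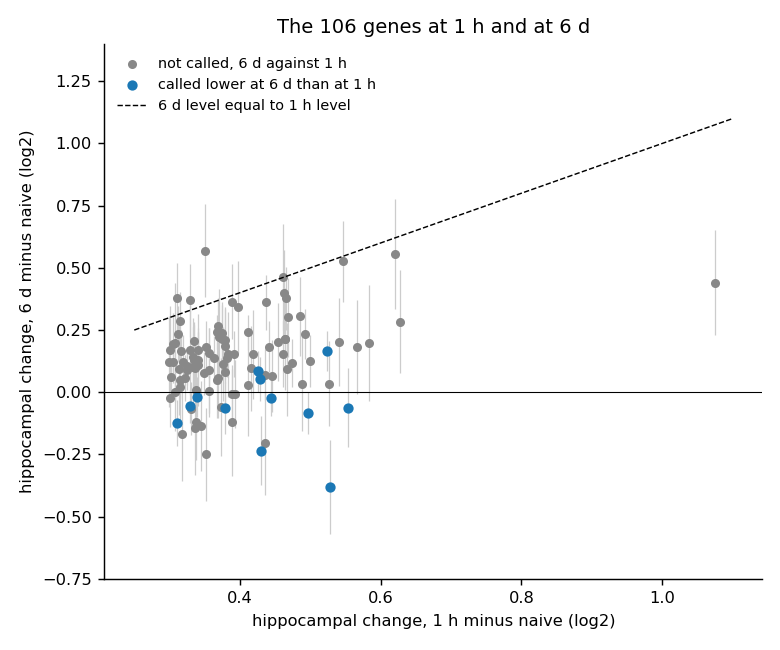
The 106 members by their dHC change from naive to 1 h (x axis) and from naive to 6 d (y axis), both as differences of log2(mean CPM + 0.5). Vertical lines are the standard error of edgeR's 6 d against naive difference, and blue marks the 12 members called lower at 6 d than at 1 h. Most points lie above the zero line and below the dashed line of equal 1 h and 6 d levels; the choice set the x values and both axes share the naive pools.

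In PL at 6 d against naive the members' median was 0.03, near the 0.02 over the 14305 genes tested in dHC. The difference was above 0 for 68 members and for 8001 of those 14305 genes. In edgeR's fit, scaled by TMM, it was above 0 for 59 members and below 0 for 46. edgeR called 0 of the 105 members it tested and 0.0% of all genes tested there, and DESeq2 also called 0 members. At an unadjusted p under 0.05 stood 5 of the 105 (4.76%; 3.47% of all genes tested), 4 of them higher. All PL pools at 6 d were above all naive pools for 10 members (9.43%; 5.14%) and below for 2 (1.89%; 3.02%). The 1 member that edgeR did not test in the PL fit, rank 65, had too few counts there.

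How the members' levels compare between regions was asked at 6 d, where neither group had been used for the choice. Here 23 of the 106 members were called higher in dHC than in PL (21.7%) and 35 lower (33.0%), and 48 were not called. Of all genes tested, 23.0% were called higher and 22.8% lower, and of the genes with at least 5 CPM in dHC at 1 h, 25.5% and 23.9%. The share called higher was thus near that of all genes, and the share called lower was above it. The choice set no limit on the regional level itself, but it used naive and 1 h levels of both regions. The members' naive medians were 11.2 CPM in dHC and 17.3 CPM in PL. Genes of at least 5 CPM in dHC at 1 h had 36.2 and 35.6 CPM. The part of the choice and of the members' low dHC levels in this share was not tested.

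The difference in level at 6 d, dHC minus PL, was under -1 for 13 members and over 1 for 4. The share of all genes beyond these limits was not counted. The quartiles of this difference were -0.58 and 0.25 for the members, against -0.23 and 0.28 for the genes tested in dHC. Rank 25 had the largest edgeR log2 difference, -4.66 (SE 0.13). It was at 7.83, 4.43 and 5.67 CPM in dHC and from 140 to 172 CPM in its 3 PL pools. Rank 36 had -3.31, with means of 6.10 CPM in dHC and 61.0 CPM in PL. Rank 22 had -3.06, with means of 6.61 and 55.2 CPM, and rank 15 had -2.81, with 7.34 and 51.8 CPM. Rank 104 had -1.96, with 23.2 and 90.1 CPM. In these 5 genes the mean dHC level was below the mean PL level in all 3 groups.

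At the other end, rank 65 was close to the limit of detection in PL. It had 6.06, 4.54 and 7.76 CPM in dHC at 6 d, and in PL 0.110, 0 and 0.688 CPM, which were 0 to 6 counts, near or under the 3 counts taken as the floor (0.326 to 0.402 CPM). Its fitted log2 difference of 4.40 (SE 0.41) therefore depends on very few PL counts. Rank 93 had 1.86, with means of 9.34 CPM in dHC and 2.60 CPM in PL, and rank 74 had 1.48, with 30.1 and 10.8 CPM. Ranks 51 and 97 came next, with means of 91.0 against 42.0 CPM and 80.0 against 40.9 CPM, and both were also among the 12 that fell from 1 h to 6 d in dHC.

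Rank 13 was lower in dHC than in PL at 6 d, by -0.97 on the log2 scale (SE 0.08, edgeR adjusted p = 1.05e-10). Its PL pools were at 55.3, 61.0 and 62.7 CPM, so that its hippocampal level at 1 h, 45.2 CPM, was still below the lowest PL pool of any group, 49.1 CPM. Rank 21 stood at -0.02 (SE 0.07), and its PL pools, at 268, 313 and 308 CPM, overlapped with its dHC pools. Rank 11 was higher in dHC by 0.36 (SE 0.11, edgeR adjusted p = 0.00754), and rank 83 by 0.92 (SE 0.08).

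**Figure D5:**
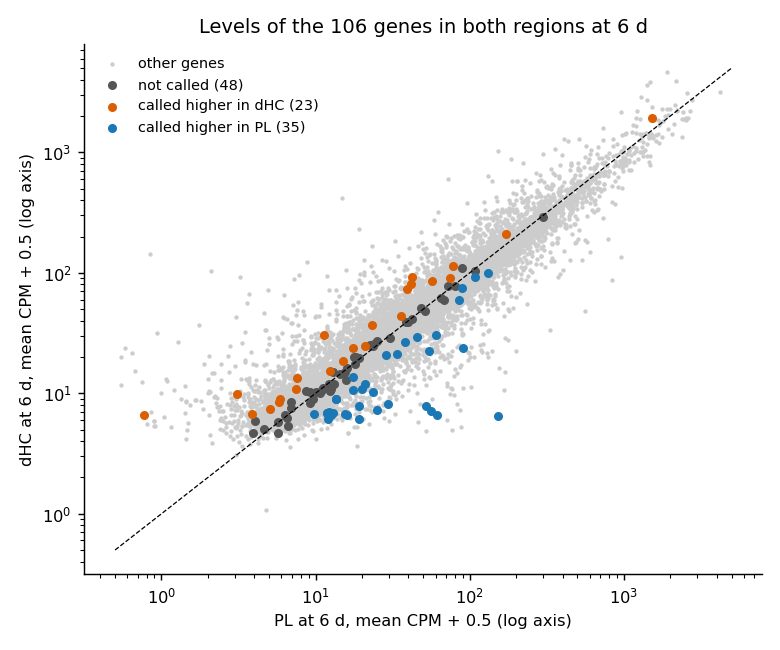
Mean CPM + 0.5 at 6 d in PL (x axis) and dHC (y axis), both log axes. Grey points are other genes of at least 5 CPM in dHC at 1 h; coloured points are the 106 members, by whether edgeR called them higher in dHC (23), higher in PL (35) or neither (48). A group of members with dHC levels under 10 CPM lies far below the dashed line of equal levels.

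In naive rats 18 members were called higher in dHC (17.0%; 22.9% of all genes tested) and 46 lower (43.4%; 23.4%). The choice required the naive dHC pools to be low, so the 46 lean towards it. Of the 58 members called at 6 d, 51 (87.9%) were called in the same direction in naive rats, near the 83.1% of all genes called at 6 d. The median difference in level, dHC minus PL, was -0.17 in naive, 0.21 at 1 h and -0.04 at 6 d for the members, and 0.03, 0.01 and -0.00 for all genes tested. The shift of the members from naive to 1 h follows from the choice.

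Split by the regional call at 6 d, the members had these values. The median dHC change at 1 h was 0.35 for the 23 higher in dHC, 0.41 for the 35 lower and 0.37 for the 48 not called. Their median dHC differences at 6 d against naive were 0.08, 0.09 and 0.16. Members called in dHC at 1 h were found in each of the 3 sets, 4 among the 23, 6 among the 35 and 5 among the 48. No difference between the sets was tested.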

How the data were processed

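The values are raw gene counts as the authors deposited them, 1 table per library. Per the labels' protocols, libraries came from a stranded poly(A) kit with paired-end reads. Rnor_6.0, Picard 1.126, bedtools 2.17.0 and DESeq2 are named in the submitters' processing notes without a role. The sources used here do not give the aligner, counter, annotation or strand setting, so overlapping, antisense and near-identical genes may share reads. The 5 rows that name no gene were left out. Reads not aligned, 42.0% to 51.8%, and aligned to several places, 5.56% to 7.18%, were also set aside by the authors' tables.

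CPM used the total gene count. Tests were edgeR 4.0.16 quasi-likelihood fits (R 4.3.3, TMM, filterByExpr, Benjamini-Hochberg over all genes tested), with 9 libraries for contrasts within a region and 18 for those between regions, tested on simulated data. Alternatives were DESeq2 1.42.0, no filter, only the groups compared, a replicate term and each pool left out, and for the choice of members other scalings and an addition of 1 before the log. Pools of a group differed by more than counting noise (chi-square per degree of freedom 1.67 to 4.98). The labels call the pools independent, and give no dates of handling. The members and lists were chosen with earlier results of these data known. The rule for named genes took the 25 of largest change (every pool in the text for the first 10, plotted for all 25), those called at 1 h, the 5 at each end of the regional difference at 6 d and of the difference at 6 d against naive, and those nearest the limit; other genes given by value were picked after their values were seen.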

Additional observations from a re-analysis of the deposited data

Results flagged for a closer look

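For 2 members the fitted difference of the 1 h change between regions passed the adjusted test over all 18 libraries. The difference, dHC minus PL, was 0.64 on the log2 scale for rank 13, ENSRNOG00000017328, and 0.54 for rank 21. Both genes were selected on a high dHC and a flat PL change, so the test restates the choice and nothing is read from it.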

How the results depend on the processing

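The choice gave 114 genes with TMM scaling, 118 with DESeq2 size factors and 105 with 1 added before the log, and 100 to 214 with 1 pool left out: 162 without the second and 214 without the third naive dHC pool and 190 without the second dHC pool at 1 h, which held 91, 97 and 93 of the 106. Fewer pools make it easier not to overlap. Members called in dHC at 1 h (15) numbered 19 with DESeq2, 45 with no filter, 34 with only the groups compared and 2 to 22 with a pool left out. All genes called higher there (31) numbered 53, 180, 98 and 14 to 57 in the same order. Regional differences of the 1 h change (2) numbered 3 with DESeq2, 11 with no filter, 4 with only the groups compared and 0 to 3 with a pool left out. Over all genes those called in this direction (5) numbered 9, 75, 14 and 1 to 17. Members lower at 6 d than at 1 h (12) numbered 13 with DESeq2, 26 with no filter, 10 with only the groups compared and 2 to 13 with a pool left out. Over all genes those called lower there (100) also rose with DESeq2 and with no filter, and stayed at 100 with only the groups compared. With a pool left out they fell to as low as 16 or rose above 100, depending on the pool. The cause of these shifts was not tested. At 6 d against naive the count of members was 0 under every alternative run, in dHC and in PL. Over all genes that count was at most 31 in dHC and 8 in PL, both with no filter. Between regions at 6 d, 18 to 24 members were higher and 33 to 36 lower with a pool left out. All genes called numbered 3166 to 3470 higher and 3014 to 3332 lower there.

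With the replicate number as a block, 32 members were called higher at 1 h against naive, 25 lower at 6 d against 1 h and 2 in the regional difference. Over all genes tested the block gave 110, 300 and 6 calls in these directions, against 31, 100 and 5 without it. Same-numbered dHC pools deviated together by correlations of 0.0134 to 0.0284 between naive and 1 h, -0.0094 to 0.0724 between 1 h and 6 d and 0.0559 to 0.2135 between naive and 6 d, where all 6 pools correlated best with their own number, against 0 of 6 and 2 of 6 in the others. The numbers were not taken to pair the samples. Members of few counts limit the precision, since 48 of 106 were under 10 CPM in naive dHC.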
